A study of Homo sapiens with 6 samples.

Results

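The tropomyosins and the subunits of nonmuscle myosin II form the contractile part of the actin cytoskeleton of nonmuscle cells, and their mRNA was measured in PANC-1 cells after knockdown of CD73. The members are 10 genes taken by symbol, of 30735 genes listed for each sample: the tropomyosin genes TPM1, TPM2, TPM3 and TPM4, the heavy chain genes MYH9 and MYH10, the essential light chain gene MYL6, and the regulatory light chain genes MYL9, MYL12A and MYL12B. The family was selected on the same values that are described below, with the higher level of TPM4 in the knockdown samples in view. The differences between CD73 siRNA and negative control samples are therefore given for the members as a description, with no p-values. The model fitted over all genes included the members, and their calls in it are given only as counts beside the share of all genes.

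PANC-1 is an established human pancreatic ductal carcinoma cell line. The study sequenced RNA from 3 samples given CD73 siRNA and 3 given a negative control siRNA, to look for genes downstream of CD73. All were grown in DMEM with serum and transfected with a lipid reagent in medium without serum. CD73, encoded by NT5E, is the cell surface enzyme that turns AMP into adenosine. The study treats the samples as separate knockdown experiments in a single cell line, and whether the 3 CD73 siRNA samples received different siRNA sequences is not given in the sources used here, nor is the time of harvest.

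Tropomyosins are coiled-coil proteins that polymerize end to end along actin filaments and influence which other proteins, myosin among them, can bind there. Nonmuscle myosin II is a hexamer of a pair of heavy chains, a pair of essential light chains and a pair of regulatory light chains. Phosphorylation of the regulatory light chain switches on its motor activity, which pulls on actin filaments in stress fibers, at the cell cortex and in the cleavage furrow. Each tropomyosin gene makes several isoforms by alternative promoters and splicing, and the values here are sums over all isoforms of a gene.

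The regulatory light chain genes are shown first because MYL12A and MYL12B are nearly identical in coding sequence. The first 30 coding bases of each are given 5′ to 3′ from GENCODE release 29, with capitals at the 9 positions where the sequences are not the same in all 3 genes.
MYL9: atgtcCagcaaGCGGGcCaaAGccaagacc
MYL12A: atgtcGagcaaAAGAAcAaaGAccaagacc
MYL12B: atgtcGagcaaAAAGGcAaaGAccaagacc
Over the whole aligned coding sequence, MYL12A and MYL12B were identical at 491 of 513 bases (95.7%), with a longest identical run of 77 bases. MYL9 was less like either of them, at 79.3% against MYL12A and 80.8% against MYL12B. Among the 4 tropomyosin genes the coding identity of the transcripts compared ran from 75.1% (TPM1 with TPM4) to 80.2% (TPM2 with TPM3), and the longest identical run was 38 bases. The coding sequences of MYH9 and MYH10 were identical at 73.4% of 5877 aligned bases.

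The genes lie apart in the genome except for one neighbouring pair. On GRCh38, MYL12A (chr18:3247481-3256236) and MYL12B (chr18:3261479-3278431) lie next to each other on the plus strand. The others are TPM1 (chr15:63042632-63071915, plus strand), TPM2 (chr9:35681992-35690121, minus), TPM3 (chr1:154155304-154194648, minus), TPM4 (chr19:16067021-16103005, plus), MYH9 (chr22:36281277-36388067, minus), MYH10 (chr17:8474205-8630761, minus), MYL6 (chr12:56158161-56163496, plus) and MYL9 (chr20:36541484-36551447, plus). The number of annotated transcripts ran from 2 for MYL9 to 34 for TPM1. Exons of TPM1 overlap those of TPM1-AS on the opposite strand over 16.1% of their length, and exons of MYL6 overlap those of SMARCC2 over 11.2%. Exons of TPM4 overlap AC008894.3 on the opposite strand over 9.6%, and those of MYL12A overlap the antisense gene AP005329.1 over 5.39%. No source used here states that the counting used strand, so reads from these overlaps cannot be told apart. Of the 50-base words in TPM4 exons, 5.53% also occur in AC098614.1, a transcribed processed pseudogene. MYL12A and MYL12B share 76 such words, which are 2.25% of the words of MYL12A and 3.94% of those of MYL12B. Taken over all other genes, 14.5% of the TPM4 words are shared, with 182 genes. The processed pseudogene AF201337.1 holds 2.24% of the TPM4 words. For TPM3 the shared part is 3.27%, with 24 genes. Among the members it is largest for TPM1, with 491 genes. These are shares of words and not of reads, so the extent to which the counts are uncertain was not measured.

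Promoter sequences are shown where a named element was found in them, because several actin cytoskeleton genes are known targets of serum response factor (SRF), which binds the CArG box, and of TEAD factors, which bind the MCAT element. RefSeq promoter windows (GRCh38.p14, from 250 bases before to 50 after each start) were at hand for 9 of the 10 members, in 17 windows. MYL9 was not matched. The windows were searched on both strands for the CArG box and for the MCAT core CATTCC, which reads GGAATG on the other strand, and the 2 motifs share no match here. Each window is shown as 30 bases on the gene's own strand, with the match in capitals.
TPM4, CArG box, chr19:16067355-16067384 (plus): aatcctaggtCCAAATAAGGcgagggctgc
MYH9, MCAT core, chr22:36388020-36388049 (minus): ggctcccggctgGGAATGgtcccgcggctc
MYH10, MCAT core, chr17:8630911-8630940 (minus): gccaatgagcgtCATTCCaggtgggtggag
MYL12A, MCAT core, chr18:3247488-3247517 (plus): tcgccgtgccctGGAATGtgcggccaggca
The CArG box was present in 1 of the 17 member windows, 173 bases upstream of a TPM4 start, and in 1.29% of all 35116 windows. The MCAT core was present in 3 of the 17, against 14.0% of all windows. It lay 70 bases upstream of the MYH9 start, 203 bases upstream of the MYH10 start and 18 bases downstream of the MYL12A start. A match describes the letters of the window and no more.

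The depth was alike in the 6 samples. The library totals recovered from the values were between 15009113 and 16836208 reads, and between 23312 and 24039 genes were above 0. NT5E, the targeted gene, was at 3.36, 6.85 and 8.22 RPKM (reads per kilobase of exon, scaled to the library total) in CD73 siRNA samples 1, 2 and 3, and at 14.0, 13.9 and 17.1 RPKM in the negative controls of the same numbers. The mean was 6.14 ± 2.50 (SD, n = 3) against 15 ± 1.86 RPKM, a ratio of 0.41, and every knockdown sample was below every control. Within replicate numbers 1, 2 and 3 the log2 difference was -1.78, -0.92 and -0.98. The difference of the group means on log2(RPKM + 1) was -1.23 ± 0.26 (SE), with a limma p of 0.0014 and a Benjamini-Hochberg adjusted p of 0.303. Blocked by replicate number, the limma p was 0.00026 and the adjusted p 0.113. The exact two-sided permutation p was 0.1, the smallest that 3 against 3 samples allow.

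Of the ductal epithelial markers checked, 5 of 6 reached 1 RPKM in at least 1 sample. KRT7 did not, with a highest value of 0.107 RPKM. The summed level of the 6 markers was 71.4 to 102 RPKM in the CD73 siRNA samples and 136 to 254 RPKM in the controls. KRT8, a simple epithelial keratin, was at 45.4, 47.5 and 30.0 RPKM in the knockdown samples and at 158, 72.0 and 83.6 RPKM in the controls, and KRT18, its partner, had means of 43.3 ± 6.25 and 70.4 ± 15.3 RPKM (SD, n = 3 each). These keratins made up most of the sum. EPCAM, at 1.23 ± 0.409 and 1.21 ± 0.576 RPKM, and CDH1, at 0.984 ± 0.507 and 1.18 ± 0.669 RPKM, overlapped between the groups. The part of these markers in the member values below was not tested. In bulk RNA, fewer cells of a type and less RNA per cell cannot be told apart. Of the fibroblast markers, only COL1A1 reached 1 RPKM, at 8.97 to 19.1 RPKM over the 6 samples. Of the muscle markers, only CNN1 did, with a highest value of 1.09 RPKM. None did so among the endothelial, leukocyte and islet markers that were listed. DCN (fibroblast), MYOG (muscle), CD3E (leukocyte) and the acinar markers PRSS1 and CPA1 were not among the genes listed. No acinar marker therefore had a value.

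Among the members, TPM4 differed most in each alternative run. The order of the others depended on single samples: MYH9 and TPM2 came next with all samples, but without control 1 the log2 difference of MYL9 (0.36) was above those of MYH9 (0.28) and TPM2 (0.27), and without CD73 siRNA sample 3 that of TPM1 (0.36) was above that of TPM2 (0.33). TPM4 was 2.47 times as high in the CD73 siRNA mean as in the control mean, MYH9 1.42 times and TPM2 1.36 times. TPM1, TPM3, MYH10, MYL6 and MYL9 had ratios between 1.09 and 1.30. The main regulatory light chain genes MYL12A and MYL12B were the only members with a lower mean in the knockdown samples, at ratios of 0.902 and 0.915. The groups did not overlap for 3 members (TPM3, TPM4 and MYH9), all higher after knockdown, where 10.3% of all genes tested had their knockdown samples above all controls and 8.07% had them below.

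**Figure D1:**
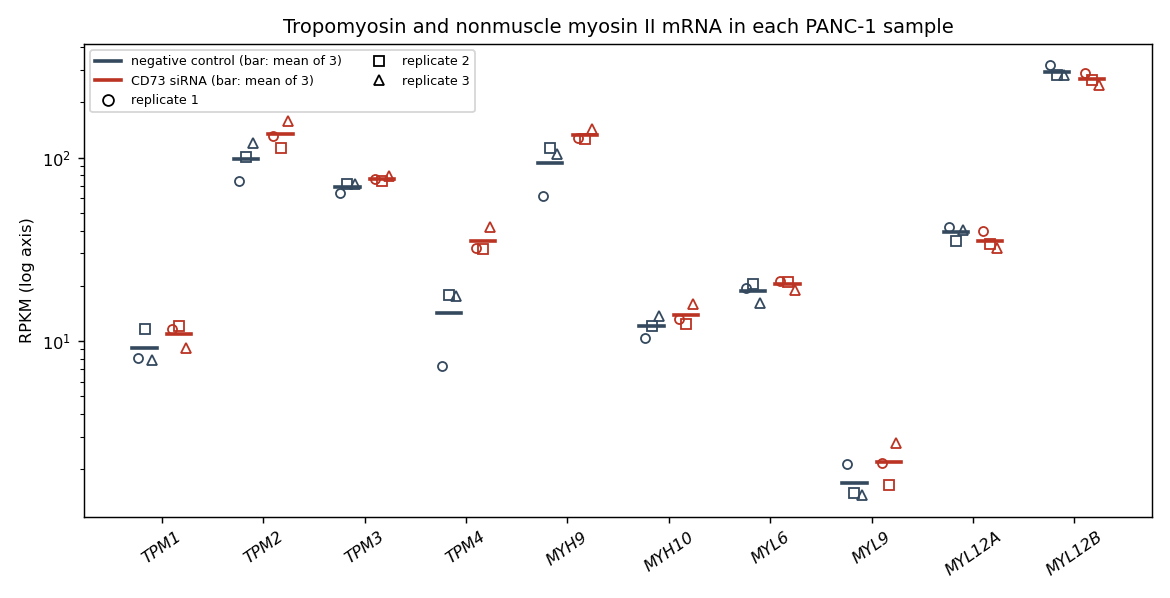
RPKM of the 10 members in each sample on a log axis, with negative control in dark grey and CD73 siRNA in red, symbols for the replicate number, and a bar at the mean of 3 samples. The groups are apart for TPM3, TPM4 and MYH9, and control sample 1 is the lowest point of TPM2, TPM3, TPM4, MYH9 and MYH10.

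TPM4 encodes a tropomyosin whose short isoform is widespread in nonmuscle cells. It was at 32.1, 31.8 and 41.9 RPKM in CD73 siRNA samples 1, 2 and 3, and at 7.34, 17.9 and 17.6 RPKM in controls 1, 2 and 3. The lowest knockdown sample was well above the highest control, and control 1 was less than the other controls. The means were 35.2 ± 5.74 and 14.3 ± 5.99 RPKM (SD, n = 3 each), and the log2(RPKM + 1) difference was 1.33 ± 0.30 (SE). Within replicate numbers the difference was 1.99, 0.80 and 1.21, so all 3 pairs had the same sign. Without control 1 the difference was 0.94. About 1016 to 6083 reads lay behind each of these values. The pseudogene AC098614.1, which shares sequence with TPM4, was at 3.70, 4.51 and 2.74 RPKM in the knockdown samples. In the controls it was at 1.35, 4.12 and 1.33 RPKM. These groups overlapped, but within each replicate number the pseudogene was higher after knockdown, as TPM4 was. The part of shared reads in either value was not tested. AC008894.3 was at 0.408 RPKM or less in every sample.

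TPM2 encodes beta-tropomyosin, known from muscle and from stress fibers of nonmuscle cells. It had the highest RPKM of the tropomyosin genes, although TPM3 was higher per length of the single transcript chosen for each gene. TPM2 was at 132, 113 and 158 RPKM in the knockdown samples and at 74.2, 101 and 121 RPKM in the controls. The groups overlapped, because knockdown sample 2 lay below control 3. The means were 134 ± 22.7 and 98.5 ± 23.2 RPKM, and the log2 difference was 0.46 ± 0.19 (SE), with 0.82, 0.16 and 0.39 within replicate numbers 1, 2 and 3. Without control 1 it was 0.27.

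TPM3, whose products include short isoforms of the cell cortex, was at 76.9, 74.1 and 79.1 RPKM after CD73 knockdown and at 63.8, 71.5 and 71.6 RPKM in the controls. The groups did not overlap, but the distance was small, at a log2 difference of 0.15 ± 0.09 (SE). TPM1, which encodes alpha-tropomyosin isoforms, was at 11.6, 12.1 and 9.14 RPKM against 8.02, 11.6 and 7.82 RPKM. These groups overlapped, and the log2 difference was 0.25 ± 0.17 (SE).

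The summed tropomyosin level was 257 ± 29 RPKM in the CD73 siRNA samples and 191 ± 33.4 RPKM in the controls, and the groups did not overlap. The share of TPM4 in this sum was 12.7%, 13.8% and 14.5% after knockdown and 4.79%, 8.87% and 8.09% in the controls. The share of TPM3 was lower in every knockdown sample than in every control, at 30.4%, 32.1% and 27.5% against 41.6%, 35.4% and 32.9%. TPM2 had the largest share of RPKM, at 52.0 ± 3.01% and 51.2 ± 3.69% (SD, n = 3 each), and TPM1 held 4.34 ± 1.06% and 4.86 ± 1.12%; both overlapped between the groups. These are shares of RPKM summed over all isoforms of a gene, not of protein or of single isoforms. The shares were also taken per length of 1 transcript of each gene in place of all its exons. That transcript was the annotated principal one with the longest coding sequence, of 284 or 285 codons, and short isoforms were not tried. The exon lengths behind TPM1, TPM2 and TPM4 differ from the release used, so these shares are approximate. On this choice, TPM3 had the largest share in every sample, at 41.2% to 54.2%. The share of TPM4 was then 11.1%, 11.6% and 13.4% after knockdown and 3.85%, 7.30% and 7.18% in the controls, again without overlap.

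**Figure D2:**
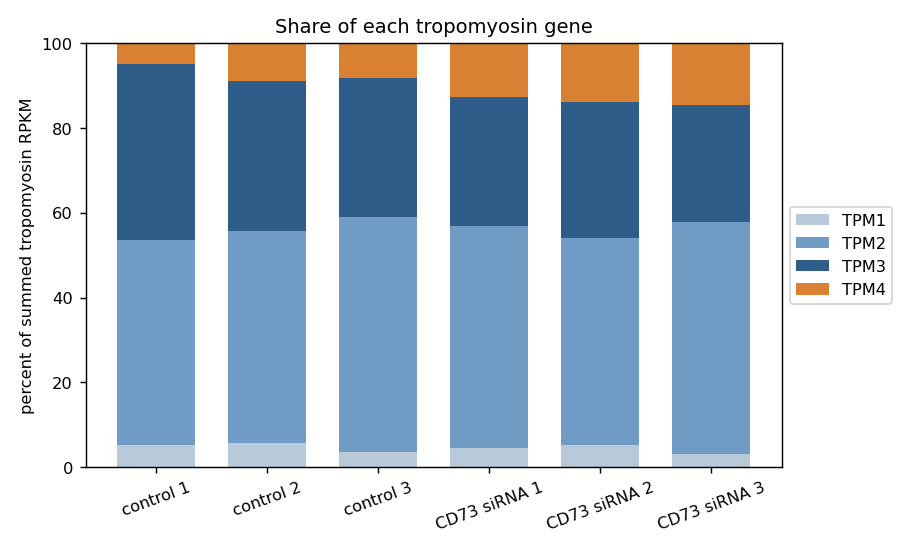
Percent of the summed tropomyosin RPKM held by each of the 4 genes, as 1 stacked bar for each sample. The TPM4 segment spans 4.79% to 8.87% in the controls and 12.7% to 14.5% in the CD73 siRNA samples.

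MYH9 encodes the heavy chain of nonmuscle myosin IIA, and was the main heavy chain gene in these cells. It was at 128, 126 and 143 RPKM in CD73 siRNA samples 1, 2 and 3 and at 61.6, 113 and 104 RPKM in the controls. The groups did not overlap, although knockdown sample 2 was close to control 2. The means were 132 ± 9.48 and 93.0 ± 27.6 RPKM, and the log2 difference was 0.55 ± 0.21 (SE). It was 1.04, 0.15 and 0.45 within replicate numbers 1, 2 and 3. Leaving out control 1 lowered the difference to 0.28.

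MYH10 encodes the heavy chain of nonmuscle myosin IIB. It was at 13.2, 12.4 and 16.0 RPKM after knockdown and at 10.4, 12.1 and 13.6 RPKM in the controls, which overlapped, with a log2 difference of 0.19 ± 0.14 (SE). MYH9 held 90.5 ± 0.548% of the summed RPKM of MYH9 and MYH10 in the knockdown samples and 88.1 ± 2.42% in the controls, again with overlap. The sum of MYH9 and MYH10 was 141, 138 and 159 RPKM after knockdown and 72.0, 125 and 118 RPKM in the controls. MYH14, a further nonmuscle heavy chain gene that is described below, is not a member and is left out of the share and the sum.

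MYL6 encodes the essential light chain, which stabilizes the lever arm of the heavy chain. It was at 21.2, 20.9 and 18.9 RPKM in the CD73 siRNA samples and at 19.5, 20.5 and 16.2 RPKM in the controls, a log2 difference of 0.12 ± 0.12 (SE). MYL12B encodes a regulatory light chain and had the highest level of all members per length. It was at 290.3, 267 and 250.5 RPKM after knockdown and at 318, 283 and 281 RPKM in the controls, a log2 difference of -0.13 ± 0.10 (SE). MYL12A, its close relative, was at 39.6, 33.8 and 32.3 RPKM against 41.8, 35.1 and 40.4 RPKM, a log2 difference of -0.15 ± 0.12 (SE). The groups overlapped for each of these 3 genes.

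MYL9, the regulatory light chain of smooth muscle and stress fibers, had the lowest level of all members. It was at 2.16, 1.64 and 2.78 RPKM in the CD73 siRNA samples and at 2.14, 1.48 and 1.44 RPKM in the controls, from 61 to 132 reads per sample. The log2 difference was 0.24 ± 0.17 (SE), with 0.01, 0.09 and 0.63 within replicate numbers 1, 2 and 3, and the groups overlapped. MYL12B held 87.8 ± 0.430% of the summed regulatory light chain RPKM in the knockdown samples and 87.8 ± 0.744% in the controls, and MYL9 0.722 ± 0.224% and 0.500 ± 0.0793%. The summed regulatory light chain level was 307 ± 23.6 and 335 ± 23.7 RPKM, and the groups overlapped.

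Within replicate numbers, all 10 members kept a single sign in the 3 comparisons, with 8 higher and 2 lower after CD73 knockdown. Over the 12527 genes tested, 27.0% were higher and 24.5% were lower in all 3 numbers. The size of the difference varied with the number. It was smallest in replicate number 2 for 9 members and in number 1 for MYL9. Control 1 was the lowest of the 6 samples for 5 members, and for 26.1% of all genes tested, where no other sample was lowest for more than 17.6%. Control 1 was also the highest sample for 22.1% of the genes tested and for 2 members, MYL12A and MYL12B, so it stood apart in both directions. Without it, the members ran from -0.10 to 0.94 on the log2 scale, and all kept their sign. With any 1 sample left out, the difference ranged from 0.16 to 0.41 for TPM1, 0.09 to 0.28 for MYH10, 0.02 to 0.18 for MYL6, 0.11 to 0.37 for MYL9, -0.23 to -0.09 for MYL12A and -0.18 to -0.07 for MYL12B. The lowest values were without control 3 for TPM1 and MYL6, and without CD73 siRNA sample 3 for MYH10 and MYL9.

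**Figure D3:**
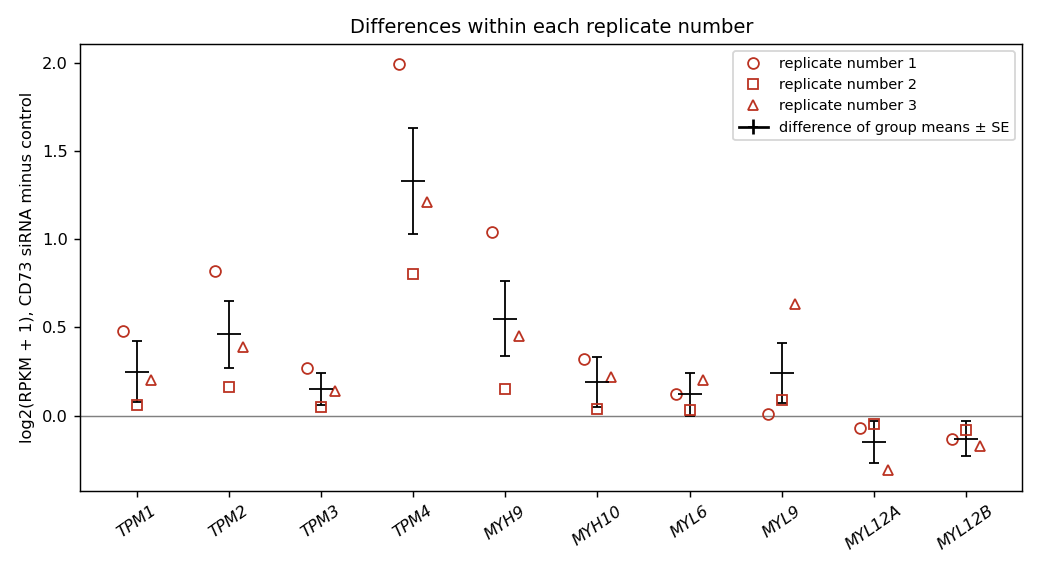
Difference in log2(RPKM + 1) between CD73 siRNA and negative control for each member, with red symbols for replicate numbers 1, 2 and 3 and a black mark with bars for the difference of the group means ± SE. TPM4 lies between 0.80 and 1.99, and MYL12A and MYL12B are the members with every symbol below 0.

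Over all genes tested, 1.82% were called higher and 1.31% lower at an unadjusted limma p below 0.01, the threshold of the study. Of the members, 1 was called higher and 0 lower. With the replicate number as a block, 4.27% of genes were called higher and 3.3% lower, and of the members 2 were called higher and 0 lower. At an adjusted p below 0.05, 0.00798% of genes were called, and no member was among them. The median log2 difference was 0.22 over the members and 0.0091 over all genes tested. Since the members were selected on this contrast, these counts describe the selection.

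Between members, levels can be compared per length only, and the order depends on the length used. In the controls, the RPKM order was MYL12B (294 ± 20.9), TPM2 (98.5 ± 23.2), MYH9 (93.0 ± 27.6), TPM3 (69.0 ± 4.51), MYL12A (39.1 ± 3.53), MYL6 (18.7 ± 2.21), TPM4 (14.3 ± 5.99), MYH10 (12 ± 1.60), TPM1 (9.14 ± 2.12) and MYL9 (1.69 ± 0.394). The ranges of TPM2 and MYH9 overlapped, as did those of MYH9 and TPM3, of MYL6 and TPM4, of TPM4 and MYH10, and of MYH10 and TPM1. For most genes the deposited RPKM behaves as reads divided by all exons of the gene in GENCODE release 29 merged, which for TPM1 come to 12876 bases against 1049 in the transcript chosen for the coding sequence, a ratio of 12.3. The same ratio was 5.51 for TPM3, 5.12 for MYL6, 3.40 for TPM4, 1.19 for MYH9 and 1 for MYL9. Divided by the length of that transcript instead, the control means were 540.2 for MYL12B, 380 for TPM3, 230 for TPM2, 134 for MYL12A, 112 for TPM1, 111 for MYH9, 95.8 for MYL6, 48.5 for TPM4, 14.1 for MYH10 and 1.69 for MYL9, in the same unit but per kilobase of that transcript. MYL12B stayed first and MYL9 last, and TPM1 moved from the ninth to the fifth place. The exon lengths behind the values of TPM1, TPM2, TPM4, MYH9 and MYL12B differ from those of this release, so their rescaled levels are approximate. This rescaling leaves the comparison between the groups of a single gene as it was.

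The other genes of the actomyosin system were described from 4 lists outside the members, with 83 genes in all, of which 67 passed the filter on low values. At an unadjusted limma p below 0.01, 1 was called higher and 2 lower, where 1.82% and 1.31% of all genes tested were. At p below 0.05, 10 were higher and 4 lower, where 7.22% of all genes tested were higher and 4.9% lower at that limit. With the replicate number as a block, 6 were called higher and 5 lower at p below 0.01, where 4.27% and 3.3% of all genes tested were. None passed an adjusted p below 0.05 in limma. The median log2 difference over the 67 genes was 0.02, close to that of all genes tested. Without CD73 siRNA sample 1, or without control 1, the count was 0 (6 and 4 genes at an unadjusted limma p below 0.05), and without control 2 it was 6. Without control 1, the log2 difference was -0.76 for LIMA1 (from -0.68), 0.47 for MICAL2 (from 0.60) and -0.64 for JUNB (from -0.96), and without CD73 siRNA sample 1 it was -0.51, 0.50 and -0.80. The groups did not overlap for 9 of the 67 genes with the knockdown samples above and for 4 with them below. Over all genes tested, the shares were 10.3% above and 8.07% below.

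Of the actins and actin filament binding proteins, 15 of 22 were tested, and 1 fell. At an unadjusted limma p below 0.05, 1 was higher and 2 were lower. LIMA1, which encodes a protein that bundles and stabilizes actin filaments, was at 5.73, 10.4 and 7.13 RPKM in CD73 siRNA samples 1, 2 and 3 and at 11.3, 14.9 and 12.1 RPKM in the controls. Every knockdown sample was below every control, and the log2 difference was -0.68 ± 0.20 (SE; limma p 0.0089, adjusted p 0.313). No gene of this list was called higher, and those with the smallest p were SVIL, a filament-bundling membrane protein (0.35 ± 0.14), and ACTB, beta-actin (0.29 ± 0.14). Under the replicate block the calls were ACTB higher and LIMA1 and TAGLN2, a transgelin, lower.

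Of the regulators of myosin II, which include its kinases, phosphatase subunits and heavy chain binders, 22 of 24 were tested and 0 were called in either direction, with 4 higher and 0 lower at an unadjusted limma p below 0.05. UNC45A, a myosin chaperone, was at 8.55, 8.81 and 10.6 RPKM in the knockdown samples and at 5.12, 7.51 and 6.67 RPKM in the controls, with a log2 difference of 0.48 ± 0.15 (SE; limma p 0.012, adjusted p 0.327). It was called higher under the replicate block. ROCK2, a kinase that raises regulatory light chain phosphorylation, had a log2 difference of 0.46 ± 0.17 (limma p 0.029). In the other direction the smallest p belonged to S100A4, a calcium-binding partner of the MYH9 heavy chain (-0.17 ± 0.09), and CIT, citron kinase of the cleavage furrow (-0.10 ± 0.10). MYLK, the myosin light chain kinase gene, was below the filter, at 0.295 to 0.442 RPKM over the 6 samples.

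Of the other myosin genes, heavy chains and a few light chains, 15 of 18 were tested and 0 were called, with 3 higher and 0 lower at an unadjusted limma p below 0.05. MYO9B, an unconventional myosin, had a log2 difference of 0.45 ± 0.17, and MYO18A, a myosin of Golgi and stress fiber, of 0.42 ± 0.16. MYH14, the heavy chain of nonmuscle myosin IIC, was at 6.04, 4.98 and 7.77 RPKM after knockdown and at 3.02, 4.32 and 5.13 RPKM in the controls, which overlapped, with a log2 difference of 0.50 ± 0.19. These 3 genes were called higher under the replicate block. MYO1E and MYO6 had the smallest p among those lower, at -0.19 ± 0.14 and -0.12 ± 0.10. MYH11, the smooth muscle heavy chain, was below the filter, at 0.0966 to 0.228 RPKM.

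Of the genes known as targets or regulators of SRF and its MRTF coactivators, 20 of 27 were tested, with 1 called higher and 1 lower, and with 2 higher and 2 lower at an unadjusted limma p below 0.05. MICAL2, an actin-oxidizing enzyme, rose from 1.54, 2.68 and 1.92 RPKM in the controls to 4.2, 3.64 and 2.89 RPKM after knockdown, a log2 difference of 0.60 ± 0.17 (SE; limma p 0.0093, adjusted p 0.314). JUNB, an immediate-early transcription factor, fell from 33.3, 17.9 and 14.8 RPKM to 7.83, 12.8 and 10.4 RPKM, a log2 difference of -0.96 ± 0.29 (SE; limma p 0.0098, adjusted p 0.316). With the replicate block, ACTB and MICAL2 were called higher, and VCL (vinculin of focal adhesions), CCN2 (a secreted matricellular protein) and EGR1 (an immediate-early transcription factor) lower, while JUNB was no longer called (limma p 0.013). For MICAL2 and JUNB the groups did not overlap. The median log2 difference of the list was -0.03. Promoter windows were at hand for 23 genes of this list, 49 windows in all. The CArG box was in 12 of the 49 windows, against 1.29% of all windows, and the MCAT core in 10, against 14.0%. By gene, 10 of the 23 held a CArG box and 10 the MCAT core in at least 1 window. The list was drawn from known SRF targets and regulators, so its CArG count is no independent result.

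**Figure D4:**
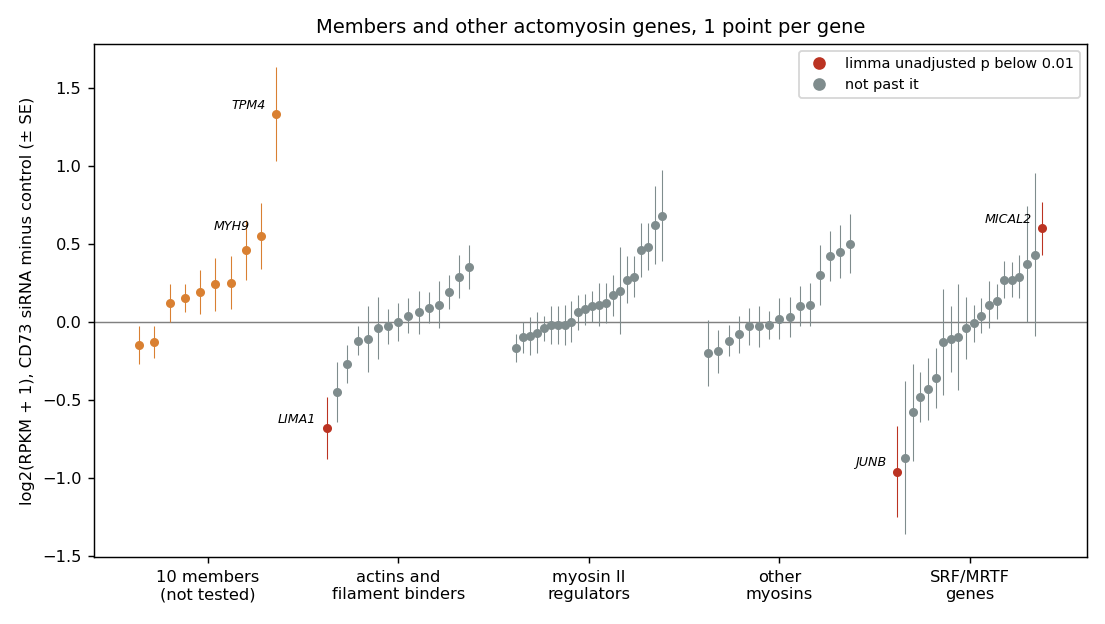
Log2(RPKM + 1) difference ± SE between CD73 siRNA and negative control, with 1 point per gene, for the 10 members in orange, whatever their p, and the tested genes of the 4 other lists in grey, or in red past an unadjusted limma p of 0.01. TPM4 lies at 1.33, above the points of the other lists, and LIMA1, JUNB and MICAL2 are the list genes in red.

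The genes whose pattern over the 6 samples lay closest to a member were taken by the mean absolute difference of centred log2(RPKM + 1) values among 7394 genes with a mean of at least 5 RPKM. For TPM4 they were ZW10 (0.167), TOMM22 (0.184) and BICD2 (0.190), where TPM4 itself deviated from its own mean by 0.665 on average. ZW10 was at 22.8, 23.7 and 21.3 RPKM in the knockdown samples and at 5.90, 14.4 and 11.8 RPKM in the controls. As with TPM4, all knockdown samples were above all controls and control 1 was lowest. For MYH9 they were AFG3L2 (0.044), NUDC (0.050) and CTTN (0.052), against 0.293 for its own deviation. CTTN, which encodes the actin-binding protein cortactin, was at 60.7, 56.6 and 64.2 RPKM against 28.2, 48.6 and 43.3 RPKM. For MYL9, FADS2 (0.055) and SREBF1 (0.068) were closest, against 0.205, and the groups overlapped in both. These likenesses describe the same 6 samples and include the difference that chose the members.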

How the data were processed

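RNA-seq of 3 CD73 siRNA and 3 negative control PANC-1 samples was used, grouped by the sample titles. By the values, the authors divided the reads of each gene by exon length and library total before the tables were deposited, which is RPKM, for 30735 genes in 1 table for each sample. No source used here states the unit. Multiplied by merged exon length in GENCODE release 29 (GRCh38), 95.1% to 95.2% of genes worth fewer than 1000 reads gave whole reads (tolerance 0.02) in each sample, which also gave the library totals. TPM1, TPM2, TPM4, MYH9 and MYL12B did not, so their read numbers are approximate. The submitters' processing notes name bcl2fastq, Bowtie2 2.2.3, HTSeq 0.6.0 and hg38, with no role or order. The annotation is not given in the sources used here.

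RPKM values were compared as log2(RPKM + 1) with limma 3.58.1 (lmFit, eBayes with a trend) in R 4.3.3, over the 12527 genes that reached 1 RPKM in 3 or more samples, with Benjamini-Hochberg adjustment over all of them. The script was tested on simulated data with a common SD for all genes and independent samples. Those settings differ from these data, so the test does not bear on the calls given here. A gene was called at an unadjusted p below 0.01. A pseudocount of 1 understates the changes of low genes. The p-values measure the spread between these samples. Same-numbered samples deviated together, least in number 1 (correlations of deviations from the group means 0.20, 0.48 and 0.55 over the genes tested). Between unlike numbers the correlations were -0.44 to -0.01, and centring each group of 3 builds in part of this contrast. The replicate numbers were taken as pairs from the data. The main fit had no block, so its SE and p leave out this pairing. Blocked values are given where a call or count changed. Intervals were not computed, and depth covers counting error only.

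The members and lists were chosen with earlier results of these data known, and the promoter, sequence identity and transcript length comparisons (Biopython 1.88) were added after the values were seen. Genes named outside the members were NT5E, genes called in a list (or those with the smallest p in a direction without a call), and the 3 closest patterns to TPM4, MYH9 and MYL9, of which 1 is not reported here. Genes named as called under the replicate block, MYLK and MYH11 were chosen after their values were seen. Alternatives were a pseudocount of 0.1, no filter, the replicate block, 75th percentile scaling, eBayes without a trend, an adjusted threshold, and each sample left out.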

Additional observations from a re-analysis of the deposited data

How the results depend on the processing

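No filter, the replicate block and eBayes without a trend cannot move a difference of group means here. Under the other 8 alternatives, none of the 80 member differences changed sign. With the pseudocount of 0.1 and the 75th percentile scaling, each moved by less than 1 SD between replicates. With 1 of 3 samples left out, a shift below that SD is fixed by arithmetic. It therefore says nothing about how stable the differences are, and the ranges are given instead. Over single samples left out, TPM4 ranged from 0.94 to 1.53 and MYH9 from 0.28 to 0.71 on the log2 scale, with both lowest without control 1. NT5E kept its direction and an unadjusted p below 0.01 in the alternatives that used that limit, from -0.90 to -1.44, and did not pass an adjusted p below 0.05 (limma adjusted p 0.303, or 0.113 with the replicate block). The count of called genes over the whole table was 392 (228 higher, 164 lower). It was 948 with the replicate block, 1 at an adjusted p below 0.05, and 116 to 792 with 1 sample left out, lowest without CD73 siRNA sample 1 and highest without control 2; it was 188 without control 1 and 258 without control 3. The count over the 4 actomyosin lists was 3. It was 11 with the replicate block, 1 by eBayes without a trend, 0 with no filter, 0 at an adjusted p below 0.05, and 0 to 6 with 1 sample left out. At an unadjusted limma p below 0.05 the counts were 14 in the main analysis, 10 with no filter, 6 without CD73 siRNA sample 1 and 4 without control 1. The cause of these shifts was not tested. The 75th percentile scaling put the median of all genes at -0.00136 in place of 0.0091. No count test was run, because the deposited values are not counts. MYL9, with 61 to 132 reads per sample, is the member most limited by depth.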
